A study of Mus musculus with 2 samples.

Results

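Mir106b, Mir93 and Mir25 are 3 miRNA genes that lie together in 1 intron of Mcm7, the mouse gene for a subunit of the MCM replicative helicase. They were followed here through every read of 18 to 30 nt that equalled a stretch of 1 of their hairpins, directly or after up to 3 nt had been trimmed from the 3' end. The 3 hairpins were 3 of the 1178 miRNA hairpins searched and gave 6 arms, the 5p and the 3p side of each. They took 73890 reads in 155 distinct sequences (tags) in Ia_low and 200542 reads in 322 tags in Ia_high.

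The series holds 1 small RNA library of CD11c+Ia_low cells and 1 of CD11c+Ia_high cells, both from the spleen of C57BL/6J mice and both labelled as dendritic cells. Ia is the mouse MHC class II molecule, which dendritic cells use to present antigen. Cells were enriched on CD11c microbeads and sorted by Ia staining, with a stated purity above 95%. The labels used here state neither the age nor the number of mice and name no treatment. With 1 library per group there was no replicate check, so no test between the cell populations was possible, and every interval below covers counting error only.

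The cluster is transcribed with Mcm7 and cut out of its intron as separate hairpins. It is a relative of the Mir17 and Mir106a clusters, and Mcm7 is a textbook target of the E2F factors that switch on genes for DNA replication. A miRNA finds its targets mainly through its seed, bases 2 to 8 from the 5' end, so miRNAs with the same seed are expected to share many targets. Once a hairpin has been cut by Drosha and Dicer, 1 arm is usually kept in Argonaute, and enzymes can shorten its 3' end or add untemplated bases, chiefly A or U.

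In GRCm38 the hairpins lie on the minus strand of chromosome 5, Mir106b at chr5:138165737-138165818, Mir93 at chr5:138165523-138165610 and Mir25 at chr5:138165321-138165404. All 3 lie in the 748 nt intron between exons 13 and 14 of the reference coding transcript of Mcm7, with 126 nt between Mir106b and Mir93 and 118 nt between Mir93 and Mir25. The hairpins from RefSeq (GRCm38.p6), which were identical to the GENCODE M21 hairpins used for counting, show where each read belongs. All 3 hairpins and all 6 mature arms were found in that table by symbol, and capitals mark the annotated mature arms, the 5p arm first.
Mir106b: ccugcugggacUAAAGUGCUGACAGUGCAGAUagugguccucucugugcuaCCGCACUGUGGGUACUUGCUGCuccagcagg
Mir93: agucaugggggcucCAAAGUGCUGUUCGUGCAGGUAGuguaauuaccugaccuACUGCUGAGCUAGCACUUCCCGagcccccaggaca
Mir25: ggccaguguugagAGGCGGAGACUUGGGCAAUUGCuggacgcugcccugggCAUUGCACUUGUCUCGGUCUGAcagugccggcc

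The mature sequences from the same RefSeq table show the 2 seeds through which the cluster overlaps with the related clusters, and capitals mark bases 2 to 8. The first 4 share the seed AAAGUGC, the next 2 share AUUGCAC, and the seed of miR-106b-3p was found in no other mature miRNA of the table.
miR-93-5p: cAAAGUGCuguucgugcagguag
miR-106b-5p: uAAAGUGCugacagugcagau
miR-17-5p: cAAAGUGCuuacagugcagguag
miR-20a-5p: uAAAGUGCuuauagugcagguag
miR-25-3p: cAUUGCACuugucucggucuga
miR-92a-3p: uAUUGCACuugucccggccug
miR-106b-3p: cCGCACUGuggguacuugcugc
Counted from the 5' end, miR-25-3p and miR-92a-3p were identical at 18 of 21 positions, and miR-106b-5p and miR-93-5p at 16 of 21.

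The libraries held 13739811 reads in Ia_low and 16388303 reads in Ia_high, of which 26.5% and 45.2% were assigned to miRNA arms. Levels are given as CPM, reads per 1000000 miRNA-assigned reads of the library. Tags above 1 read were most often read 9 times in Ia_low and 4 times in Ia_high, so reads are not independent molecules. The 95% intervals of miRNA reads below were therefore widened by dividing counts by those numbers. Intervals of mRNA fragments are plain counting intervals, not widened. In mRNA fragments of the same libraries, the 6 genes of a list for Ly6C-low monocytes summed to 1588 distinct fragments in Ia_low and 1506 in Ia_high (ratio 2.57, 2.39 to 2.76, after scaling to each library's fragments), and 5 of the 6 were called higher, against 6.13% of the 7003 genes tested called higher and 9.42% lower. The 8 dendritic cell genes summed to 959 and 4296 fragments (ratio 0.543, 0.506 to 0.583), with 5 called lower, among them Zbtb46, a transcription factor of conventional dendritic cells, at 1 and 56 fragments. On this list H2-Aa, H2-Ab1, H2-Eb1, Cd74 and Ciita belong to the Ia gate or its pathway, so the sum is not independent of the sort. Zbtb46 was thus scarce in Ia_low, though its ratio of 0.043 (0.001 to 0.252) rests on 1 fragment there. Of the other genes outside the gate and its pathway, Flt3 (5 and 153 fragments) was called lower and Itgax (77 and 320) in neither direction. The lists for cDC1, B cell, T cell, erythroid and neutrophil genes summed to 50, 6, 0, 0 and 49 fragments in Ia_low and to 440, 28, 32, 3 and 27 in Ia_high, and the T cell fragments were all of Tcf7. A smaller share of cells that carry a miRNA and less of it per cell cannot be told apart in these bulk libraries.

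Together the 3 genes had 20281 CPM in Ia_low and 27088 CPM in Ia_high, a ratio of 0.749 (0.731 to 0.766). miR-25-3p supplied 84.6% of the cluster's reads in Ia_low and 81.5% in Ia_high, and the 5p arm of Mir93 followed with 11.6% and 12.3%. miR-106b-3p gave 3.33% in Ia_low and 5.59% in Ia_high. The order of the 3 lead arms was the same in both libraries although the genes lie on 1 primary transcript, and the levels are not corrected for how readily each sequence takes an adaptor.

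miR-25-3p had 62546 reads in Ia_low and 163353 in Ia_high, which is 17167 and 22065 CPM. It ranked 12th of 729 arms in Ia_low and 10th in Ia_high. Its ratio was 0.778 (0.758 to 0.798), a log2 ratio of -0.36.

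miR-93-5p had 8580 reads (2355 CPM) in Ia_low and 24682 reads (3334 CPM) in Ia_high, a ratio of 0.706 (0.659 to 0.756). miR-106b-3p had 2459 reads (675 CPM) in Ia_low and 11210 reads (1514 CPM) in Ia_high, a ratio of 0.446 (0.392 to 0.505). Its partner miR-106b-5p, which carries the seed of miR-17, had 174 reads (47.8 CPM) and 824 reads (111 CPM), a ratio of 0.429 (0.254 to 0.685). All 4 arms were thus lower in Ia_low in CPM, the arms of Mir106b by the wider margin, although in distinct tags miR-25-3p and miR-93-5p were not lower (log2 0.14 and 0.06).

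The passenger arms were scarce. miR-25-5p had 113 reads (31.0 CPM) in Ia_low and 376 reads (50.8 CPM) in Ia_high, and its interval included 1 (ratio 0.611, 0.310 to 1.11). miR-93-3p had 18 and 97 reads and stayed below a mean of 10 CPM, the minimum for a call. No read of 31 to 44 nt and no antisense read matched any of the 3 hairpins.

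An arm was called when its CPM differed at least 2-fold and the unwidened counting interval excluded 1. Of the 6 member arms 5 reached 10 CPM, and 2 of them, both of Mir106b, were called lower in Ia_low. Over all 258 arms at that level, 31.4% were called lower and 10.1% higher, 81 and 26 arms, so 2 of 5 is close to the background share. With all library reads as the total, 5 of 5 member arms tested were called lower, and with the median log2 ratio set to 0, 0 of 5. With the 10 most abundant arms left out of the total it was 1 of 6. Over all arms, in the same order of scalings, 55%, 21.3% and 22.2% of the 200, 258 and 387 arms tested were called lower. The split was 110 lower and 4 higher, 55 and 39, and 86 and 85. Those scalings moved every log2 ratio by -0.77, 0.30 and 0.26. The median over all arms was -0.32, and 67 of the 258 arms lay lower than miR-106b-3p, against 107 lower than miR-93-5p and 122 lower than miR-25-3p.

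**Figure D1:**
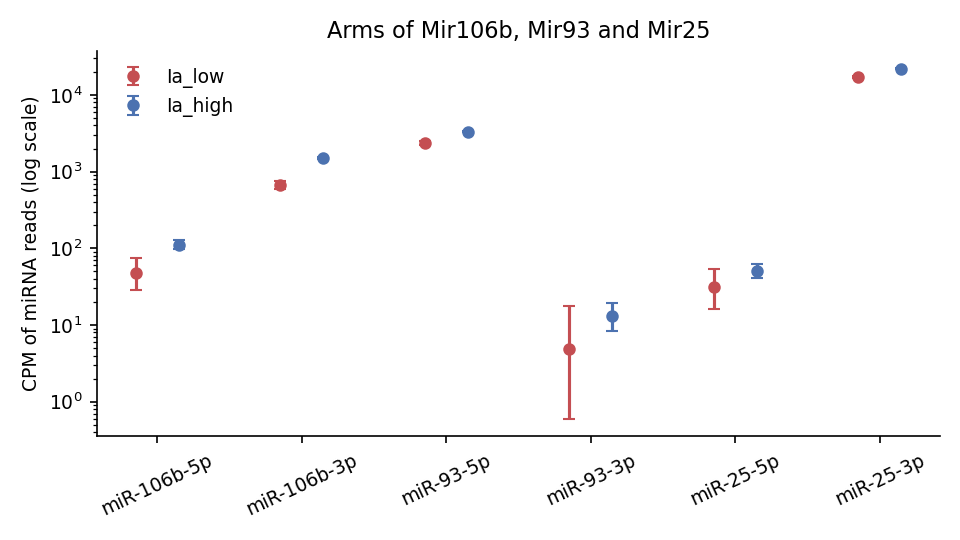
Level of each member arm in CPM of miRNA reads on a log axis, Ia_low left and Ia_high right, with widened 95% counting intervals. miR-25-3p stands at 17167 CPM in Ia_low and 22065 CPM in Ia_high, and the gap between libraries is wider for both arms of Mir106b.

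**Figure D2:**
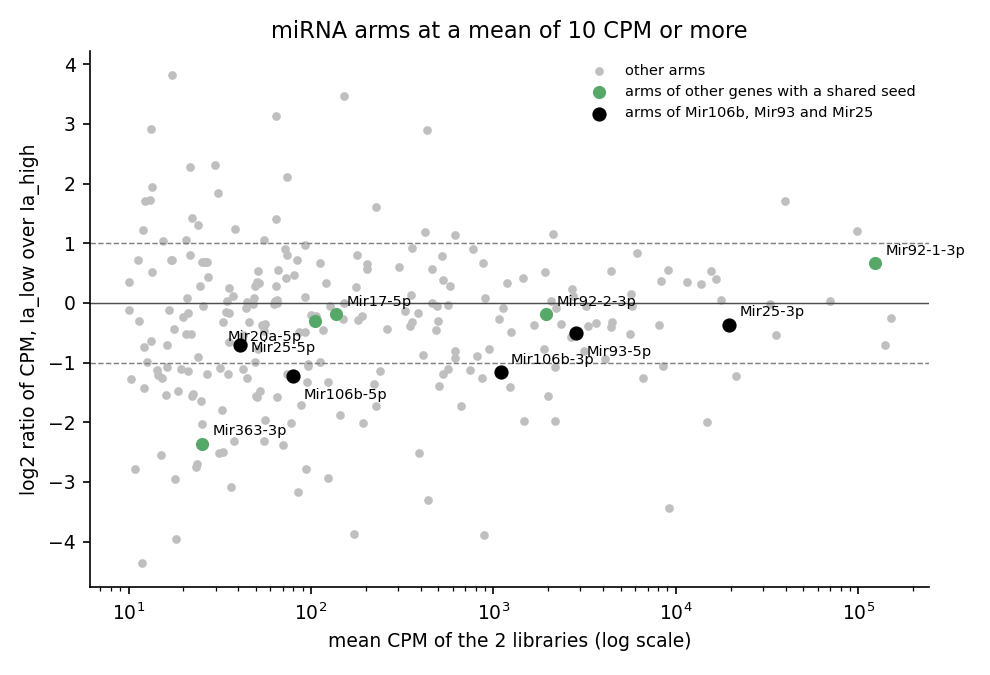
Log2 ratio of CPM (Ia_low over Ia_high) against mean CPM, with 2-fold marked by dashed lines. Drawn are those of the 258 arms at a mean of 10 CPM or more that had reads in both libraries. Arms without reads in 1 library, such as Mir138-1-3p (0 reads in Ia_low, 887 in Ia_high), have no finite log2 ratio and are left out. The 5 member arms drawn in black all lie below 0, and the 2 arms of Mir106b lie below -1.

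The ratio between members does not depend on how the libraries are scaled. There were 0.0393 miR-106b-3p reads per miR-25-3p read in Ia_low and 0.0686 in Ia_high, a log2 difference of -0.80 (-0.99 to -0.62). Against miR-93-5p the log2 difference of miR-106b-3p was -0.66 (-0.87 to -0.46). miR-93-5p and miR-25-3p kept closer to each other, with 0.137 and 0.151 reads of miR-93-5p per read of miR-25-3p (-0.14, -0.24 to -0.03).

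No difference in the choice of arm was detectable in reads at this depth. The 5p arm took 6.61% of Mir106b reads in Ia_low (4.04 to 10.1) and 6.85% in Ia_high (5.97 to 7.81). It took 99.8% and 99.6% of Mir93 reads, and 0.180% and 0.230% of Mir25 reads. The difference in log2 5p over 3p was -0.05 for Mir106b (-0.75 to 0.64), 0.87 for Mir93 (-1.18 to 2.93) and -0.34 for Mir25 (-1.19 to 0.50), and all 3 intervals included 0, the widest with 18 reads of miR-93-3p in Ia_low. In distinct tags the difference was -1.29 for Mir106b and 0.85 for Mir25, outside those intervals. Over 108 hairpins the quartiles were -0.98 and 0.90.

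The start of an arm sets its seed, and 3 of the 4 main arms started at 1 base. miR-25-3p reads began at the annotated base in 99.8% of reads in each library, miR-93-5p in 99.7% in Ia_low and 99.8% in Ia_high, and miR-106b-5p in 100% and 99.9%. miR-106b-3p was the exception. It began at the annotated base 52 of the hairpin in 66.0% of reads in Ia_low (60.1 to 71.6) and 68.1% in Ia_high (66.4 to 69.9), and at base 50 in 31.2% (25.8 to 37.1) and 29.7% (28 to 31.4). The intervals overlap, so the split between starts was not distinguishable between the libraries. The tag with the most reads over both libraries at each start, copied from the deposited tags with bases 2 to 8 in capitals, shows that the earlier start carries another seed.
miR-106b-3p from base 52, 20 nt: cCGCACTGtgggtacttgct
miR-106b-3p from base 50, 22 nt: tACCGCACtgtgggtacttgct
The seed from base 50, ACCGCAC, is that of 0 annotated mature miRNAs in the RefSeq table. Both tags end at the same base, 71, so the earlier start makes the longer read.

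The 20 nt tag of miR-106b-3p was the most abundant of the arm in Ia_high and lost that place in Ia_low. It had 223 reads in Ia_low and 4427 in Ia_high, and in Ia_low 2 tailed tags from the same start had more, with 237 and 232 reads. The 22 nt tag from base 50 had 714 and 3173 reads, 29.0% and 28.3% of the arm.

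Split by the last templated base, the difference in miR-106b-3p was held by reads that end 2 nt short of the annotated end. From the annotated start, reads ending at base 71 had 71.6 CPM in Ia_low and 628 CPM in Ia_high, a ratio of 0.114 (0.076 to 0.165). Those ending at base 72 had 232 and 260 CPM (0.893, 0.708 to 1.12). Those ending at base 73, the annotated end, had 107 and 73.6 CPM (1.45, 1.01 to 2.06). Over all starts, reads that ended at base 72 or later had 374 CPM in Ia_low and 366 CPM in Ia_high, a ratio of 1.02 (0.852 to 1.22). The reads from base 50, of which 95.8% and 96.7% ended at base 71, had a ratio of 0.469 (0.371 to 0.587).

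miR-25-3p showed the same order by end on a smaller share of its reads. Its 2 tags that differ only in the last 2 bases had these sequences.
miR-25-3p, 22 nt: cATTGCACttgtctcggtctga
miR-25-3p, 20 nt: cATTGCACttgtctcggtct
The 22 nt tag had 40693 reads in Ia_low and 97915 in Ia_high, 65.1% and 59.9% of the arm. The 20 nt tag had 2753 and 26801 reads, 4.40% and 16.4%. Reads ending 2 nt short had 833 CPM in Ia_low and 3756 CPM in Ia_high (ratio 0.222, 0.198 to 0.247), while those ending at the annotated base had 13854 and 15340 CPM (0.903, 0.878 to 0.929).

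miR-93-5p did not divide in this way. Its ratio was 0.658 (0.576 to 0.749) for reads ending 2 nt short, 0.810 (0.677 to 0.963) for 1 nt short, 0.696 (0.621 to 0.779) at the annotated end and 0.759 (0.640 to 0.896) for 1 nt past it. Its annotated length is 23 nt, so reads that end 2 nt short are 21 nt long rather than 20 nt.

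**Figure D3:**
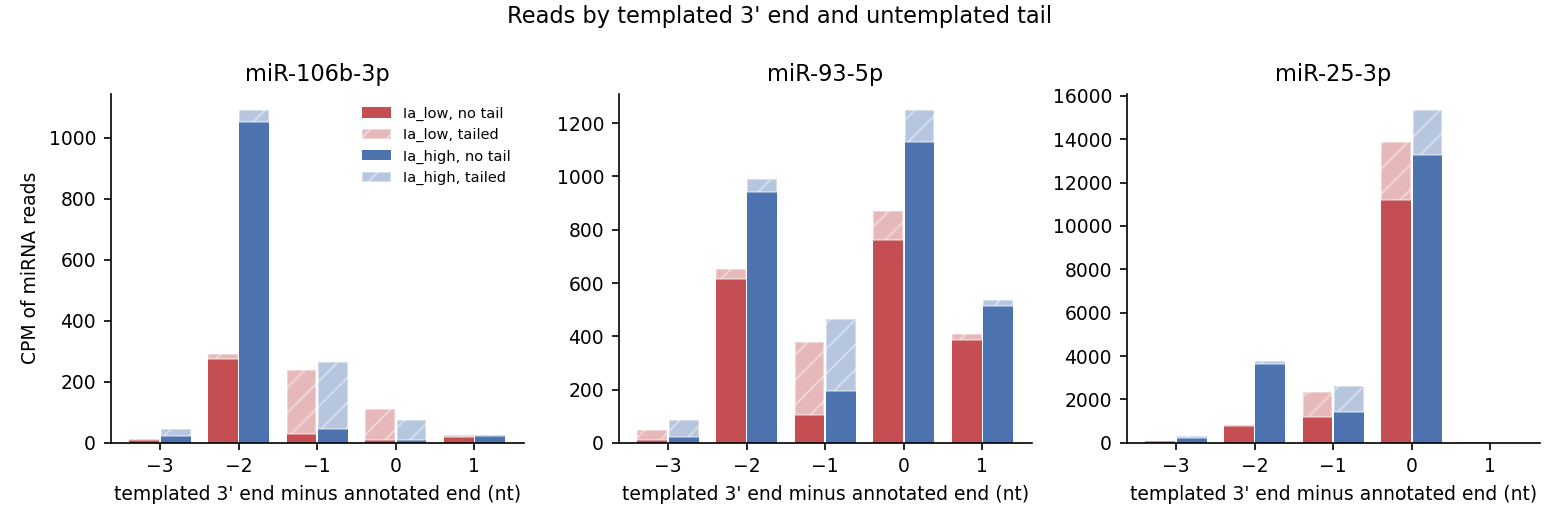
CPM of miR-106b-3p, miR-93-5p and miR-25-3p by the last templated base relative to the annotated end, Ia_low left of Ia_high, with tailed reads hatched above untailed ones; the 3 panels have their own linear scales. The bars at -2 differ most for miR-106b-3p (290 CPM in Ia_low, 1090 CPM in Ia_high) and miR-25-3p (833 and 3756 CPM).

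Short reads were scarcer in Ia_low across miRNAs, so these differences were read against the other arms. Reads of 18 to 20 nt made up 10.2% of miR-106b-3p in Ia_low and 41.6% in Ia_high, 4.92% and 17.7% of miR-25-3p, and 0.408% and 0.814% of miR-93-5p. The median over 89 arms with 1000 reads or more in each library was 0.826% in Ia_low and 2.66% in Ia_high, and 83 of the 89 arms had the lower share in Ia_low. The log2 ratio of 20 nt to 22 nt reads differed between libraries by -2.45 for miR-106b-3p and by -2.04 for miR-25-3p, against a median of -1.05 over 61 arms. In 9 arms it was lower than in miR-106b-3p, and in 14 lower than in miR-25-3p. miR-93-5p, at -0.42, had 46 of the 61 arms below it. The part of size selection or RNA quality in the difference in length was not tested.

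Without the reads of 18 to 20 nt, an alternative chosen after seeing the data, the log2 ratio of miR-106b-3p was -0.60, against -1.17 with all lengths, and no member arm was called. With 21 to 23 nt reads alone the log2 ratio was -0.67 for miR-106b-3p, -0.43 for miR-93-5p and -0.07 for miR-25-3p.

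As a share of an arm's reads, untemplated 3' tails were more common in Ia_low on each of the 4 main arms. miR-106b-3p was tailed in 50.3% of its reads in Ia_low (44.2 to 56.3) and 24.1% in Ia_high (22.6 to 25.8). In level, its tailed reads from base 52 did not differ detectably, with 329 CPM in Ia_low and 347 CPM in Ia_high (ratio 0.947, 0.780 to 1.14). Its untailed 20 nt reads had 61.2 and 599 CPM (0.102, 0.066 to 0.152), so the higher share went with fewer untailed reads. miR-25-3p was tailed in 22.9% (21.9 to 23.9) and 15.8% (15.5 to 16.2). miR-93-5p was tailed in 20.3% (17.8 to 23) and 15.8% (14.9 to 16.7), and these intervals do not overlap either.

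The 26.1 point difference of miR-106b-3p was exceeded in 2 of the 89 arms, whose median difference was 2.92 points. miR-106b-5p had 36.8% tailed reads in Ia_low (16.4 to 61.4) and 20.1% in Ia_high (14.9 to 26.3), intervals that overlap. Counted in distinct tags instead of reads, the tailed share was lower in Ia_low for miR-106b-3p (a difference of -11.7 points) and for miR-25-3p (-1.03 points). Each tag counts once there, however rarely it was read. miR-106b-3p had 38 tags in Ia_low and 89 in Ia_high, and miR-25-3p had 66 and 119. A tail here is any 3' base that the hairpin does not encode, so a sequencing error at the last base counts as one, and its part was not tested.

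The letters of the counted tails differed between members. On miR-106b-3p, A alone was the most common tail, at 20.1% of reads in Ia_low and 12.7% in Ia_high, with U alone at 14.2% and 5.51% and mixed A and U at 13.8% and 4.07%. On miR-25-3p, U alone led, at 12.5% in Ia_low and 8.84% in Ia_high, with A alone at 6.46% and 4.19%. miR-93-5p also carried more counted U than A, with U alone at 11.7% and 8.03% and A alone at 6.07% and 5.28%. An added base that equals the hairpin's next base is counted as template, so the letters that can be seen differ by hairpin. This hid an added A after base 72 of miR-25-3p and base 35 of miR-93-5p. It hid an added U after bases 70 and 73 of miR-106b-3p, base 70 of miR-25-3p and bases 34 and 37 of miR-93-5p. On miR-106b-3p and miR-25-3p, a U added after base 70 was thus counted as a templated end at base 71. The part of these hidden bases in the differences between members or libraries was not tested.

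The tailed share, as counted, differed strongly with the last templated base. Reads of miR-106b-3p ending 2 nt short carried a tail in 5.69% of cases in Ia_low and 3.64% in Ia_high, those ending 1 nt short in 88.6% and 82.5%, and those at the annotated end in 93.0% and 88.8%. miR-93-5p had tails on 5.85% of reads in Ia_low and 4.96% in Ia_high at 2 nt short, on 72% and 58.3% at 1 nt short, and on 12.3% and 9.43% at the annotated end. miR-25-3p had 9.29% and 3.52% at 2 nt short, 49.3% and 45.1% at 1 nt short, and 19.2% and 13.6% at the annotated end. As counted, the share at 1 nt short was thus high on all 3 arms. At the annotated end it stayed high for miR-106b-3p alone of them. A tail that begins with the hairpin's next base is counted as a longer templated end, so these shares also depend on the sequence. That base is U after the annotated ends of miR-106b-3p and miR-93-5p and C after that of miR-25-3p. Its part in these shares was not tested. The widened intervals of the libraries overlapped for miR-106b-3p at 2 nt short, at 1 nt short and at the annotated end. For miR-25-3p they did not overlap at 2 nt short (6.41 to 12.9 in Ia_low, 3.10 to 3.98 in Ia_high) or at the annotated end (18.2 to 20.3 and 13.2 to 14.0).

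**Figure D4:**
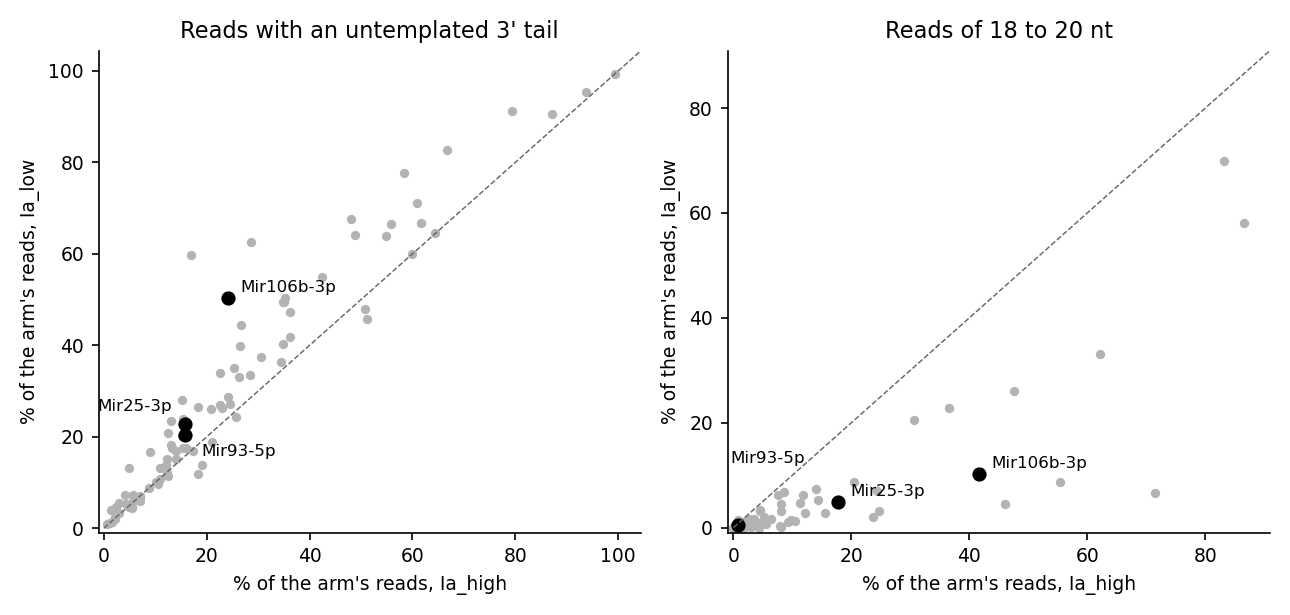
Percent of an arm's reads with an untemplated tail (left) and of 18 to 20 nt (right), Ia_low on the vertical and Ia_high on the horizontal axis, for 89 arms, with the line of equality. Mir106b-3p lies far above the line for tails (50.3% in Ia_low, 24.1% in Ia_high) and far below it for short reads (10.2% and 41.6%).

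Through its seeds the cluster adds to pools that the related clusters also feed. The AAAGUGC pool had 2612 CPM in Ia_low and 3712 CPM in Ia_high (ratio 0.704, 0.659 to 0.751). miR-93-5p made up 89.9% of it in Ia_low and 89.6% in Ia_high, miR-17-5p 4.66% and 3.84%, miR-20a-5p 3.49% and 3.09%, and miR-106b-5p 1.83% and 2.99%. The 2 members together held 91.7% (89.9 to 93.3) and 92.6% (92 to 93.2), so in both libraries this pool was mostly miR-93-5p.

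The AUUGCAC pool was far larger and differed in the other direction, with 172386 CPM in Ia_low and 122149 CPM in Ia_high (ratio 1.41, 1.40 to 1.42). miR-92a-3p, from Mir92-1 and Mir92-2, gave 89.9% of it in Ia_low and 81.8% in Ia_high, and miR-25-3p gave 9.94% (9.72 to 10.2) and 18.0% (17.9 to 18.2). The level of miR-92a-3p assigned to Mir92-1 alone was 152481 CPM in Ia_low and 96001 CPM in Ia_high, a ratio of 1.59 (1.57 to 1.60). The far smaller part assigned to Mir92-2 alone went the other way, with 1810 and 2070 CPM (0.875, 0.807 to 0.947). Mir92-1 and Mir92-2 carry the same 21 nt miR-92a-3p. The split between them depends on bases outside it, where an added base can be counted as template. miR-25-3p was thus lower in CPM where miR-92a-3p pooled over its genes was higher (155042 CPM in Ia_low, 99930 CPM in Ia_high). With all library reads as the total, however, the log2 ratio of miR-92a-3p assigned to Mir92-1 was -0.10.

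Of the other relatives, miR-17-5p had 128 and 146 CPM (ratio 0.879, 0.640 to 1.19) and miR-20a-5p 94.4 and 116 CPM (0.814, 0.561 to 1.15), both within their counting error of 1. miR-363-3p, from the Mir106a cluster, had 8.23 CPM in Ia_low and 42.3 CPM in Ia_high and was called lower (0.195, 0.044 to 0.562). miR-106a-5p had 0 reads in Ia_low, where 3 reads would be 0.823 CPM, and 41 reads in Ia_high. miR-20b-5p and miR-32-5p stayed below a mean of 10 CPM.

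Among the 120 arms with a mean of 100 CPM or more, the arms with the ratios nearest to miR-106b-3p were miR-107-3p (log2 -1.14), miR-222-3p (-1.19) and miR-130b-3p (-1.13). Nearest to miR-106b-5p were miR-486-5p (-1.23), miR-340-5p (-1.25) and miR-222-3p. Nearest to miR-25-3p were let-7g-5p (-0.36), miR-532-5p (-0.38) and miR-1839-5p (-0.35). Likeness here is the distance between 2 log2 ratios over 2 libraries.

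Fragments of mRNA in the same libraries allowed the host gene to be set beside its miRNAs. Mcm7 had 4 distinct fragments in Ia_low and 18 in Ia_high, 30.1 and 55.6 per 1000000 fragments (ratio 0.541, 0.133 to 1.64), so a difference was not detectable at this depth. Of the 7 genes of the MCM list 6 reached 10 fragments. Only Mcm2, at 2 and 21 fragments, was called lower, against the 9.42% over all genes. The list's 7 genes summed to 28 fragments in Ia_low and 134 in Ia_high, a ratio of 0.508 (0.326 to 0.769), and the median log2 ratio of the 6 was -0.86, against -0.13 over all genes.

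E2F genes were too scarce to rank. Of 8, 3 reached 10 fragments, and E2f2 and E2f4 were called in neither direction. E2f8 had 0 and 11 fragments and was called lower on its ratio of 0. With a floor of 3 fragments in Ia_low it was at least 1.51-fold lower, a bound short of the 2-fold rule. Among the cluster's neighbours, Ap4m1 had 12 and 16 fragments and Cnpy4 3 and 7, neither called, and Taf6 had 1 and 7. Of the 6 genes on the list for dividing cells 3 reached 10 fragments, and 2 of these, Mki67 and Top2a, were called lower, against 9.42% over all genes. The 6 summed to 9 fragments in Ia_low and 256 in Ia_high (ratio 0.086, 0.039 to 0.165), with Mki67 at 5 and 155, Top2a at 2 and 80, Cdk1, which was not called, at 1 and 11, and Birc5 at 0 in both. The part of dividing cells in the levels of the cluster was not tested.

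Genes known as targets of these miRNAs in mouse or human cells were called in both directions. Of 12, 11 reached 10 fragments, 2 were called higher in Ia_low, 2 lower and 7 neither, against 6.13% higher and 9.42% lower over all genes tested. Their median log2 ratio was 0.39, against -0.13 over all genes, and nothing particular to the list is read from counts this small. Tgfbr2, a receptor for TGF-beta, had 50 fragments in Ia_low and 57 in Ia_high (ratio 2.13, 1.43 to 3.18), and Klf4, a transcription factor of monocytes, had 136 and 160 (2.07, 1.63 to 2.62). Ccnd1, cyclin D1, had 4 and 127 fragments (0.077, 0.021 to 0.201), and Smad7, an inhibitor of TGF-beta signalling, had 3 and 37 (0.197, 0.039 to 0.623). Cdkn1a, the cell cycle inhibitor p21, had 71 and 101 fragments (1.71, 1.24 to 2.34) and was called in neither direction.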

How the data were processed

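For 1 library each of Ia_low and Ia_high cells, the authors deposited unscaled counts, the number of reads of each distinct tag. Per the labels' protocols, RNA below 30 bases was gel-purified, ligated to adaptors, amplified for 12 cycles and isolated near 90 bp. How reads were trimmed and filtered, and on which genome build, is not given in the sources used here. No molecular identifiers are named.

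Tags of 18 to 30 nt were compared, with no mismatch allowed, with 1178 GENCODE M21 hairpins (GRCm38), with up to 3 nt trimmed from the 3' end. Tags that fitted several arms (0.270% of miRNA reads in Ia_low, 0.515% in Ia_high, none of the 3 genes) were left out of arm levels, and miR-92a-3p was pooled over its genes in the seed pools. Ratios carry exact (Clopper-Pearson) 95% counting intervals from reads divided by 9 and 4. mRNA fragments were tags of 20 to 30 nt that fitted the transcripts of 1 protein-coding gene. They carry plain counting intervals, and genes with 10 fragments or more over both libraries were tested by the same 2-fold rule. Arm balance had 0.5 added to each count.

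The named items were all member arms, arms of related clusters with their seeds, the 3 arms nearest in ratio and fixed gene lists. Members and lists were chosen with earlier results of these data known. Computations ran in Python 3.11.15 with numpy 2.4.6, scipy 1.17.1, pandas 2.3.3 and matplotlib 3.10.9 and were tested on simulated data. Alternatives covered scaling, read length, trimming, distinct tags and the call thresholds.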

Additional observations from a re-analysis of the deposited data

Results flagged for a closer look

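Reads across the hairpin edges in the Mcm7 intron, which no comparison above uses, came to 22 in Ia_low and 34 in Ia_high, above the 3 reads that a count of 0 allows. They belong to 5 tags of 19 to 28 nt on the strand of Mcm7. Of these, 2 tags with 10 reads in Ia_low and 24 in Ia_high ended at the base next to the annotated start of miR-25-5p, and 2 tags with 0 and 10 reads at the base next to the start of miR-93-5p. Each tag was read in 1 library only, so no difference between the libraries can be read from them. The intron was searched only as far as the annotated retained-intron transcript of Mcm7 reaches, which does not cover Mir106b.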

How the results depend on the processing

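No paired analysis was possible because each group has 1 library and the replicate numbers only name the samples. In the order miR-106b-3p, miR-93-5p and miR-25-3p, the log2 ratio (Ia_low over Ia_high) was -1.93, -1.27 and -1.13 with all library reads as the total, -0.87, -0.20 and -0.065 with the median set to 0, and -0.90, -0.24 and -0.10 without the 10 most abundant arms in the total. It was -0.83, -0.68 and -0.18 in 22 nt reads and -0.24, 0.059 and 0.14 in distinct tags. For miR-106b-3p it was -1.68 with direct matches only. For miR-106b-3p and miR-25-3p it was -0.67 and -0.067 in 21 to 23 nt reads, -0.78 and -0.14 with Ia_high weighted by length, and -0.60 and -0.21 without reads of 18 to 20 nt, the last added after seeing the data. miR-106b-3p relative to miR-25-3p, also recomputed after seeing the data, was -1.29 with direct matches, -0.61 in 21 to 23 nt reads, -0.38 in distinct tags and -0.39 without reads of 18 to 20 nt, and kept its sign in each of these.

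The member arms called lower numbered 5 with all library reads as the total. They numbered 1 without the 10 most abundant arms, in 22 nt reads, in distinct tags and at a floor of 100 CPM. They numbered 0 with the median set to 0, in 21 to 23 nt reads, with length weighting and without reads of 18 to 20 nt. Those tested numbered 6 without the 10 most abundant arms and in distinct tags, 3 at a floor of 100 CPM and 5 in the other settings named here. Of all arms tested, 55% were called lower with all library reads, 22.2% without the 10 most abundant arms and 24.8% in 22 nt reads. The share was 2.06% in distinct tags, 23.3% at a floor of 100 CPM and 21.3% with the median set to 0. It was 22.8% in 21 to 23 nt reads, 23.7% with length weighting and 25.6% without reads of 18 to 20 nt. Over all arms, those called lower and higher were 15 and 3 of 729 by distinct tags. They were 178 and 106 of 512 at a floor of 1 CPM, and 28 and 8 of 120 at a floor of 100 CPM. The number called higher was 4 of 200 with all library reads, 85 of 387 without the 10 most abundant arms and 48 of 258 at 1.5-fold. Where a call was lost with fewer lengths or another total, the cause was not tested beyond that choice.

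The tailed share of miR-106b-3p differed by 40.1 points at its most common start. In distinct tags the differences were -11.7 points for miR-106b-3p, 0.876 for miR-93-5p and -1.03 for miR-25-3p, so the higher tailed share of miR-106b-3p and miR-25-3p in Ia_low holds for reads and not for tags. The share at the most common start differed by -24.8 points for miR-106b-3p with direct matches only, since tailed reads then drop out, and by 5.91, 5.38 and 10.6 points for miR-106b-3p, miR-93-5p and miR-25-3p in distinct tags. The mean templated length differed by 0.654 nt for miR-106b-3p and 0.282 nt for miR-25-3p with direct matches, and by 0.225 nt for miR-93-5p and 0.512 nt for miR-25-3p in distinct tags. In distinct tags the log2 5p over 3p differed by -1.29 for Mir106b and 0.85 for Mir25. The other 99 of these comparisons stayed within the counting interval, or within 1.5 times for a count. Depth limits the passenger arms, and Mcm7 with 4 and 18 fragments.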
